A study of Sus scrofa with 10 samples.

Results

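Genes for 5 molecules with which endothelium catches leukocytes, E-selectin (SELE), P-selectin (SELP), ICAM1, VCAM1 and PECAM1, were followed in swine aortic valve leaflets. They were chosen by name, with earlier results of these data known. Each was read by the probe sets that the array annotation assigns to its symbol alone. All 5 were measured, with 6 probe sets among 23999 on the array, and they are 5 of 6765 genes with such a probe set. PECAM1 had 2 probe sets, of which the brighter stood for the gene. The array annotation gives SELE as gene ID 397508, SELP as 397150, ICAM1 as 396750, VCAM1 as 396925 and PECAM1 as 396941.

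Total RNA of whole leaflets from female swine was hybridised to Affymetrix GeneChip Porcine Genome arrays. The groups were 3 arrays of juvenile wild-type swine (WT; Rapacz Wisconsin Miniature Swine, genotype RFH -/-, 3 months old), 3 arrays of juvenile Rapacz Familial Hypercholesterolemic swine (RFH, a breed with inherited high blood cholesterol, 3 months old) and 4 arrays of adult RFH swine (2 years old). All groups ate standard chow, and leaflets went into RNAlater in the hour after death. The questions that follow from the groups were how RFH leaflets differed between ages and how the breeds differed at the younger age. Adult WT leaflets were not analysed here, so age and the duration of high cholesterol cannot be told apart. Whether arrays stand for separate animals is not stated, so p-values measure the spread between these samples, which may be technical.

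Leukocytes leave the blood in steps. Selectins on activated endothelium bind sugars on passing leukocytes and let them roll, ICAM1 and VCAM1 hold them through leukocyte integrins, and PECAM1 at the junctions between endothelial cells helps them pass through. P-selectin is stored ready-made in the Weibel-Palade bodies of endothelial cells and in platelets. E-selectin is made anew when inflammatory cytokines such as interleukin 1 and tumour necrosis factor reach the endothelium. Both cytokines act on the E-selectin gene through the transcription factor NF-kappaB. ICAM1 and VCAM1 are not limited to endothelium and can be made by stromal cells and macrophages, while PECAM1 is a standing component of endothelium, platelets and some leukocytes.

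Values are on a log2 scale, so that a difference of 1 is a doubling, and lay between 2.01 and 14.96 over all arrays. Control probe sets differed between and within groups. The poly-A labelling controls lay between 7.16 and 7.59 in adult RFH, 6.42 and 6.46 in juvenile RFH and 6.63 and 6.78 in juvenile WT arrays. Adults were 0.90 above juvenile RFH (exact two-sided permutation p = 0.0286, the smallest that 4 against 3 arrays can give), and the labels name no batch. The gap between 3' and 5' probe sets of control transcripts, which grows as RNA breaks down, ranged from 1.75 to 2.84 in adult RFH arrays and from 1.99 to 2.38 in the juvenile arrays. Juvenile RFH replicate 2 stood apart by its cardiac muscle transcripts, with a marker mean of 8.65 against 5.39 to 5.90 in the 9 other arrays. Valve interstitial cell markers averaged 11.85 to 12.60 on every array, and endothelial markers 8.12 to 9.46.

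**Figure D1:**
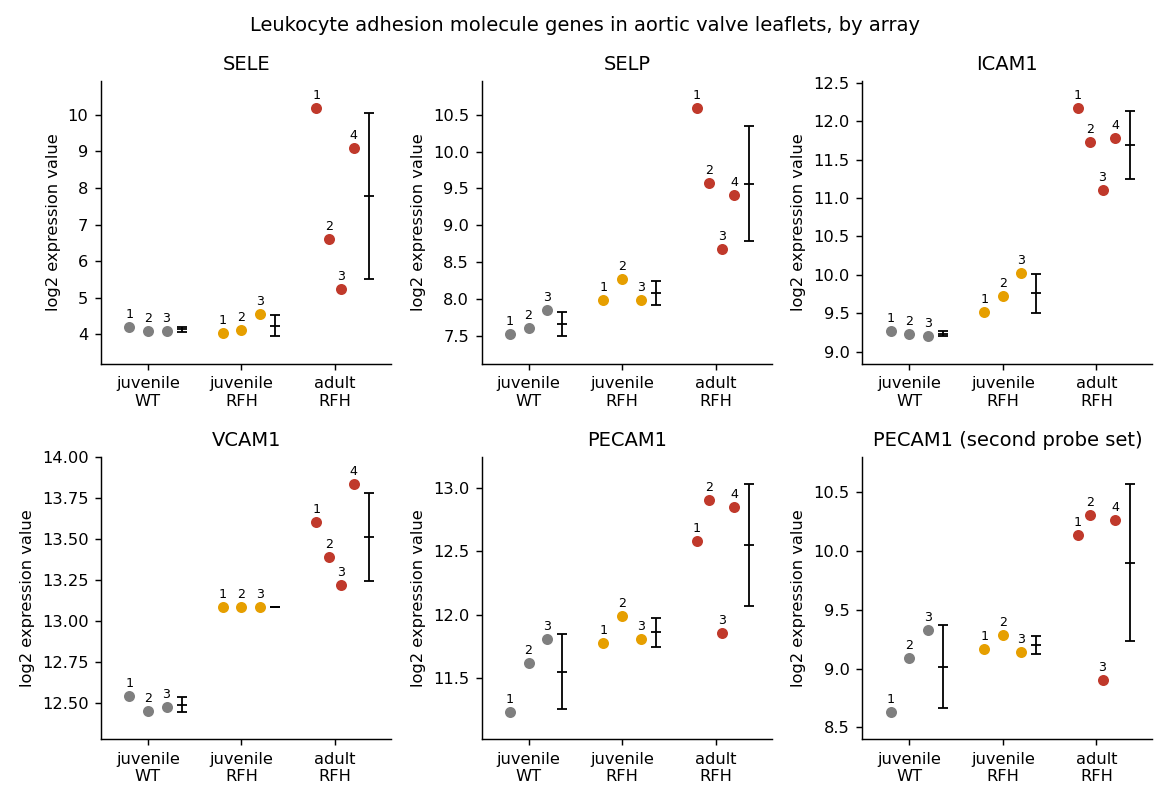
Log2 expression values (y axis) of the 5 genes, and of the second PECAM1 probe set, in juvenile WT, juvenile RFH and adult RFH leaflets. Points are single arrays with their replicate numbers and bars give the mean ± SD; adult RFH replicate 3 is the lowest adult array in every panel, and SELE spans 5.24 to 10.18 among adults against 4.02 to 4.56 in juvenile RFH arrays.

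SELE, SELP, ICAM1 and VCAM1 rose in adult against juvenile RFH leaflets, and PECAM1 did not pass the test. The call is an adjusted p under 0.05 in a limma fit of all 10 arrays, with Benjamini-Hochberg adjustment over 23999 probe sets. Of all 6765 genes, 11.4% were called upward in this comparison, 7.85% downward and 19.3% in either direction (16.8% of probe sets), against 4 of the 5 members, all upward. Adult and juvenile RFH arrays did not overlap for the same 4 genes, and 16.6% of all genes lay wholly higher in adults. The median difference of the 5 members was 1.48, against 0.02 over all genes. Because the members were chosen with earlier results of these data known, these contrasts with all genes describe the set and are no test of it. The count rested on single arrays: ICAM1 alone was called when juvenile RFH replicate 1 or 3 was dropped (a count of 1), and SELP and ICAM1 when juvenile RFH replicate 2 or adult RFH replicate 4 was dropped (a count of 2).

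SELE had the largest change of the 5. It read 10.18, 6.62, 5.24 and 9.10 in adult RFH replicates 1 to 4, 4.02, 4.11 and 4.56 in juvenile RFH replicates 1 to 3, and 4.21, 4.09 and 4.10 in juvenile WT replicates 1 to 3. All 6 juvenile arrays were low and close together, and the adult arrays lay above them but far apart, with replicates 1 and 4 high and replicates 2 and 3 nearer the juveniles. The adult mean of 7.78 ± 2.26 (SD, n = 4) was above the juvenile RFH mean of 4.23 ± 0.29 (SD, n = 3) by 3.55 ± 0.93 (SE, 95% interval 1.5 to 5.60), which is 11.7-fold (limma adjusted p = 0.0255). By size it ranked 8 among the 6765 genes. The SD of SELE among adults exceeded that of 99.99% of probe sets. In the juvenile arrays SELE was brighter than only 12% to 17.3% of probe sets, so how background was handled before deposit bears on the size of its fold, and no detection calls were used. Dropping any juvenile RFH array ended the call (adjusted p = 0.0854, 0.0677 and 0.0669 for replicates 1, 2 and 3), as did dropping adult RFH replicate 4 (0.05), and the difference ran from 2.75 without adult RFH replicate 1 to 4.40 without adult RFH replicate 3.

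SELP, the other selectin measured here, moved less and more evenly. Its values were 10.58, 9.57, 8.68 and 9.41 in adult RFH replicates 1 to 4, 7.98, 8.27 and 7.99 in juvenile RFH replicates 1 to 3, and 7.53, 7.60 and 7.85 in juvenile WT replicates 1 to 3. The lowest adult array lay 0.41 above the highest juvenile RFH array. SELP rose by 1.48 ± 0.34 (SE, 95% interval 0.74 to 2.22), 2.79-fold, from 8.08 ± 0.17 (SD, n = 3) to 9.56 ± 0.78 (SD, n = 4), with a limma adjusted p of 0.014. Dropping juvenile RFH replicate 1 or 3 ended the call, with adjusted p-values of 0.0555 and 0.0548.

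ICAM1, which holds leukocytes through their integrins, had the firmest difference. It read 12.17, 11.72, 11.10 and 11.78 in adult RFH replicates 1 to 4 and 9.52, 9.72 and 10.03 in juvenile RFH replicates 1 to 3. The lowest adult array was 1.07 above the highest juvenile RFH array, the widest gap of the 5 members. ICAM1 rose by 1.94 ± 0.21 (SE, 95% interval 1.47 to 2.40), 3.83-fold, from 9.76 ± 0.26 (SD, n = 3) to 11.69 ± 0.44 (SD, n = 4), with a limma adjusted p of 0.000323. Each of the 10 fits without 1 array kept the call, with adjusted p-values of 4.72e-05 to 0.00274, and by size ICAM1 ranked 66 among all genes.

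VCAM1, the other integrin-binding member, was already bright in juveniles, above 98.5% of probe sets or more on every array. Its values were 13.60, 13.39, 13.22 and 13.84 in adult RFH replicates 1 to 4, 13.08, 13.08 and 13.09 in juvenile RFH replicates 1 to 3, and 12.54, 12.45 and 12.48 in juvenile WT replicates 1 to 3. The 3 groups formed 3 separate steps, and the adult arrays were spread more widely than the juvenile ones. Between juvenile and adult RFH it rose by 0.43 ± 0.13 (SE, 95% interval 0.14 to 0.71), 1.34-fold, with a limma adjusted p of 0.0474. That call held only without adult RFH replicate 3 (0.0114) among the 10 fits that leave out 1 array, and the other 9 gave 0.052 to 0.121.

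PECAM1 was measured by both of its probe sets. The brighter read 12.58, 12.90, 11.86 and 12.85 in adult RFH replicates 1 to 4, 11.78, 11.99 and 11.81 in juvenile RFH replicates 1 to 3, and 11.23, 11.62 and 11.81 in juvenile WT replicates 1 to 3. Adult replicate 3 fell among the juvenile RFH arrays, and the other 3 adult arrays lay above them. The difference was 0.69 ± 0.23 (SE, 95% interval 0.17 to 1.2; limma adjusted p = 0.069), and dropping adult RFH replicate 3 made it 0.92 with an adjusted p of 0.00374. The second probe set read 10.13, 10.31, 8.90 and 10.26 in adult RFH replicates 1 to 4 and 9.17, 9.29 and 9.14 in juvenile RFH replicates 1 to 3. Its difference was 0.70 ± 0.31 (SE, adjusted p = 0.145), which became 1.04 when that adult array was dropped (adjusted p = 0.00249), so the 2 probe sets gave nearly the same size.

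**Figure D2:**
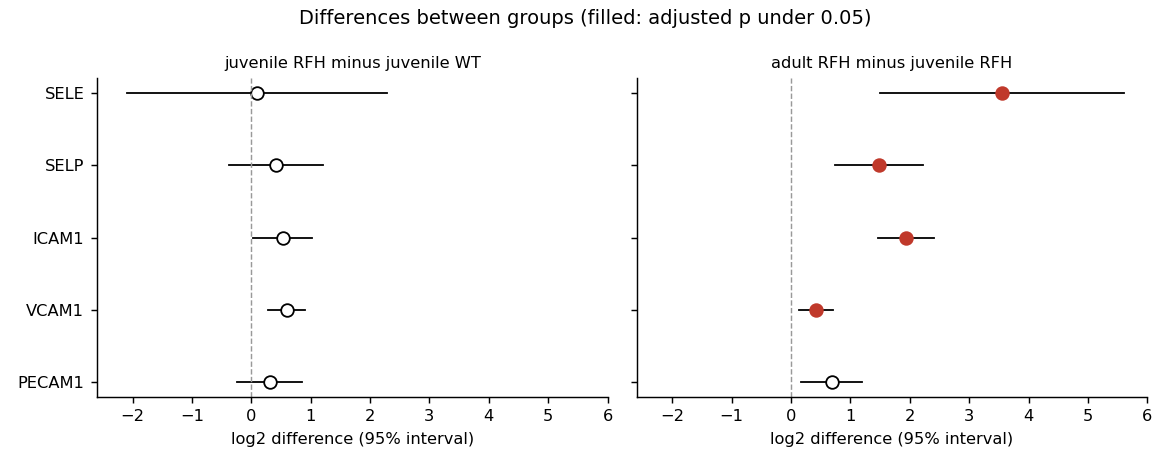
Log2 differences (x axis) with 95% intervals from limma for juvenile RFH minus juvenile WT (left) and adult RFH minus juvenile RFH (right), with filled points for adjusted p under 0.05. None of the 5 genes is filled on the left and 4 are filled on the right; SELE has the widest interval in both panels.

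In juvenile RFH against juvenile WT leaflets none of the 5 genes passed the limma test (2 at an unadjusted p under 0.05, ICAM1 and VCAM1, both higher, as were 11.04% of all genes), where 9 of 6765 genes or 0.133% were called, 0.0887% upward and 0.0443% downward (0.117% of probe sets). All 5 differences were positive, and the RFH arrays lay wholly above the WT arrays for SELP, ICAM1 and VCAM1, as 26.3% of all genes did. VCAM1 differed most, at 13.09 ± 0.002 against 12.49 ± 0.05 (SD, n = 3 each), a difference of 0.60 ± 0.14 (SE, 95% interval 0.29 to 0.90; adjusted p = 0.134). With only the 6 juvenile arrays in the fit its adjusted p was 0.0157, in a fit that called 872 or 3.63% of probe sets, and with array weights it was 0.0118. ICAM1 read 9.27, 9.23 and 9.20 in WT replicates 1 to 3 and differed by 0.53 ± 0.23 (SE, adjusted p = 0.364). SELP differed by 0.42 ± 0.36 (SE, 95% interval -0.37 to 1.21), PECAM1 by 0.31 ± 0.25 (SE, -0.24 to 0.86) and SELE by 0.10 ± 0.99 (SE, -2.09 to 2.29). The interval of SELE comes from the spread shared with the adult arrays, and the juvenile arrays themselves lay within 0.12 in WT and 0.53 in RFH.

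By group mean each of the 5 genes was lowest in juvenile WT, then juvenile RFH, then adult RFH, and the 2 comparisons share the juvenile RFH arrays. The neighbours WT and juvenile RFH overlapped for SELE and PECAM1, and the neighbours juvenile and adult RFH overlapped for PECAM1. For VCAM1 the difference between the juvenile groups, 0.60, and that between the RFH groups, 0.43, were of like size, while for SELE, SELP and ICAM1 the values were 0.10 and 3.55, 0.42 and 1.48, and 0.53 and 1.94. Whether the 2 differences of a gene differ from each other was not tested.

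**Figure D3:**
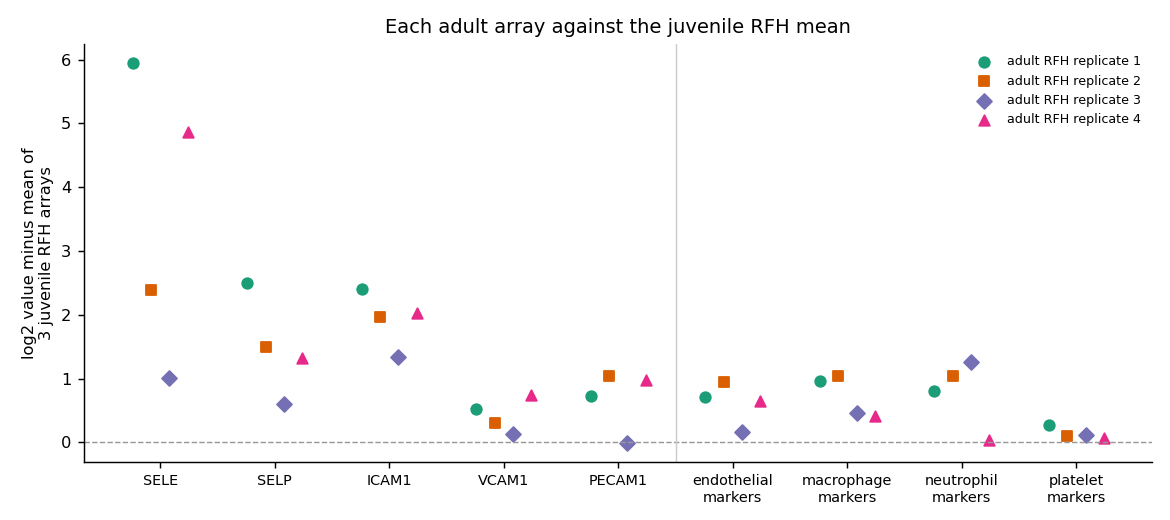
Log2 value of each adult RFH array minus the mean of the 3 juvenile RFH arrays (y axis), for the 5 genes and for the mean of 4 marker lists. Replicate 3 (diamonds) is lowest for each of the 5 genes and for the endothelial markers, and highest for the neutrophil markers.

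The 5 genes shared the lowest adult array but not the highest. Adult RFH replicate 3 was lowest for all 5, replicate 1 was highest for SELE, SELP and ICAM1, replicate 4 for VCAM1 and replicate 2 for PECAM1. Replicate 3 was also lowest by the mean of several gene lists described below, among them the endothelial markers and the NF-kappaB genes. It was not lowest by the mean of the macrophage, neutrophil or platelet markers. Against the juvenile RFH mean, replicate 1 was 5.95 higher in SELE, 2.50 in SELP and 2.41 in ICAM1, and replicate 3 was 1.01, 0.60 and 1.34 higher. The 3' to 5' difference of the control probe sets was 1.75, 2.25, 2.84 and 2.12 in adult replicates 1 to 4, lowest in the array with the most SELE and highest in the array with the least. From the smallest 3' to 5' difference to the largest, the adult replicates ran 1, 4, 2 and 3, which is the whole order of SELE and ICAM1 from highest to lowest. With that difference as a covariate, an alternative chosen after the data were seen, the rises were 3.48 for SELE, 1.46 for SELP, 1.92 for ICAM1 and 0.42 for VCAM1, each still called (adjusted p = 0.0251 or less), and PECAM1 at 0.67 was called too (adjusted p = 0.0329). The covariate averaged 2.24 in adult and 2.25 in juvenile RFH arrays, so including it could hardly move a difference between these groups. That fit called 4804 probe sets, against 4025 without the covariate. Whether RNA quality bears on the rises was not tested.

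Some markers of endothelium rose in adults as well. Of 14 measured endothelial markers 5 (35.7%) rose and 1 (7.14%) fell between juvenile and adult RFH leaflets, against 11.4% and 7.85% of all genes. The median difference was 0.57, and the list mean was 8.68 to 9.46 in adult RFH, 8.42 to 8.66 in juvenile RFH and 8.12 to 8.4 in juvenile WT arrays. Thrombomodulin (THBD), an anticoagulant receptor, rose by 1.58 ± 0.14 (SE), the nitric oxide synthase of endothelium (NOS3) by 1.71 ± 0.33 and von Willebrand factor (VWF), the platelet-binding protein of Weibel-Palade bodies, by 1.48 ± 0.27, while the endothelial transcription factor gene ERG fell by 0.43 ± 0.09 (limma adjusted p = 0.00853 or less for each). Adult replicate 3 was the lowest adult array in this list too. In whole tissue fewer cells of a type and less RNA per cell cannot be told apart.

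**Figure D4:**
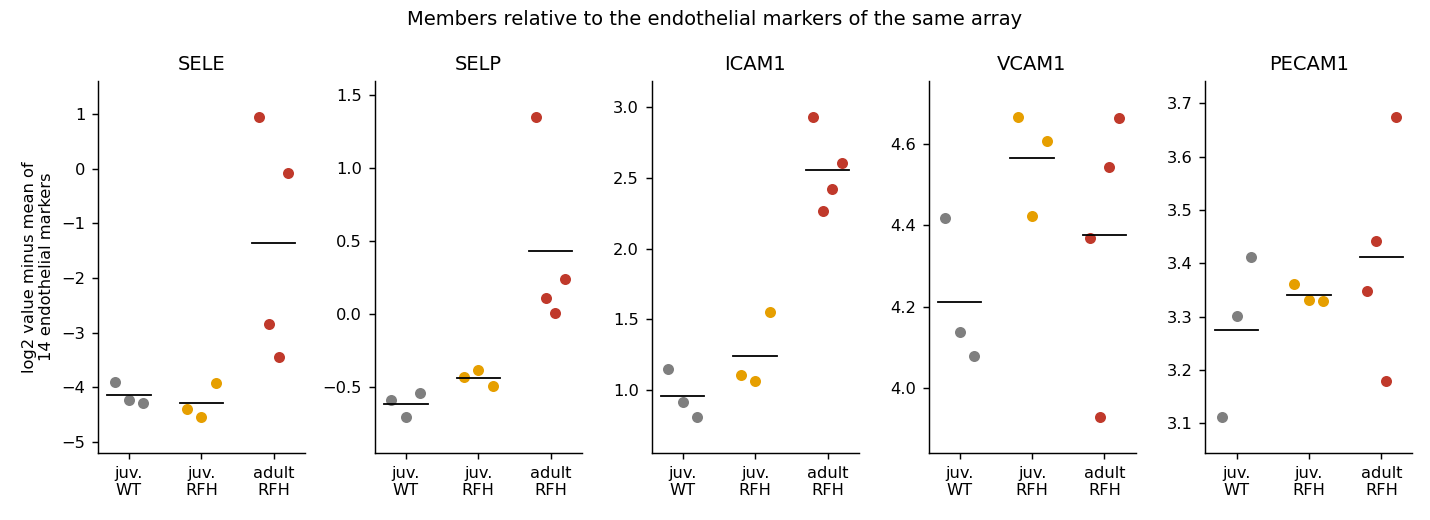
Log2 value of each gene minus the mean of 14 endothelial markers on the same array (y axis), by group, with a bar at the group mean. ICAM1 in adult RFH arrays, at 2.26 to 2.93, stays apart from juvenile RFH arrays, at 1.06 to 1.55, whereas the VCAM1 and PECAM1 points of the 2 RFH groups overlap.

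Each gene was therefore also read relative to the mean of the endothelial markers on its own array. On that scale ICAM1 was 1.32 higher in adult than in juvenile RFH leaflets, SELE 2.94 and SELP 0.87, without overlap between the groups for any of the 3. The exact two-sided permutation p was 0.0286 for ICAM1, the smallest possible, 0.0857 for SELE and 0.0571 for SELP, and 0.2 for each after Benjamini-Hochberg adjustment over the 10 such comparisons. VCAM1 differed by -0.19 (exact permutation p = 0.457) and PECAM1 by 0.07 (exact permutation p = 0.657), and both groups overlapped. The direction for VCAM1 turned with the summary of the markers, at 0.33 with their median and 0.18 with the junction gene CDH5 alone, and PECAM1 was 0.59 and 0.44 higher on those scales. Between juvenile RFH and WT the differences relative to the marker mean were -0.14 for SELE, 0.18 for SELP, 0.28 for ICAM1, 0.35 for VCAM1 and 0.07 for PECAM1, with exact permutation p-values of 0.1 to 0.7, where 3 against 3 arrays allow 0.1 at the lowest. With CDH5 alone as the reference they were -0.39 for SELE, -0.07 for SELP, 0.04 for ICAM1, 0.11 for VCAM1 and -0.18 for PECAM1. With the marker median they were -0.50, -0.18, -0.07, -0.00 and -0.29 in the same order. The directions of SELP and PECAM1 thus turned on both of these scales and that of ICAM1 on the second, where no difference was left for VCAM1.

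Other cells of a leaflet carry some of the 5 molecules. Of 10 macrophage markers 6 (60%) rose and none fell in adult against juvenile RFH leaflets, against 11.4% and 7.85% of all genes. The median difference was 0.77, and the list mean was 10.59 to 11.21 in adult RFH, 10.15 to 10.18 in juvenile RFH and 9.68 to 9.84 in juvenile WT arrays. CD14, the endotoxin co-receptor, rose by 0.92 ± 0.14 (SE) and the myeloid adaptor TYROBP by 1.29 ± 0.21. From highest to lowest the adult replicates ran 2, 1, 3 and 4 in this list and 2, 1, 4 and 3 in the endothelial list. None of the 5 members had exactly either order, but parts of both orders rest on near ties. Macrophage means were 10.63 and 10.59 in adult replicates 3 and 4, and endothelial means 9.24 and 9.17 in adult replicates 1 and 4. PECAM1, at 2, 4, 1 and 3, differed from the endothelial order only in that last pair. Platelets hold SELP and PECAM1, and of 3 measured platelet markers none was called (none at an unadjusted p under 0.05 either), with a mean of 5.96 to 6.17 in adult RFH and 5.85 to 5.98 in juvenile RFH arrays. PPBP, the main platelet chemokine, was low on all of them, at 3.37 to 3.56 in juvenile RFH arrays and at most 4.00 in adults. The part of these cells in the members' changes was not tested.

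Among further markers, S100A9, a calcium-binding protein of neutrophils, was the 1 of 5 neutrophil markers to rise, by 2.74 ± 0.49 (SE), and the list averaged 4.94 to 6.16 in adult and 4.82 to 5.03 in juvenile RFH arrays. None of 10 lymphocyte markers was called by limma (1 at an unadjusted p under 0.05), and leaving out adult RFH replicate 2, 3 or 4 gave 1 call, LCK in the first and second of these fits. Of 4 erythroid genes 2 fell, of 11 interstitial genes 3, of 6 smooth muscle genes 1 and of 12 cardiac muscle genes none (2 lower and 1 higher at an unadjusted p under 0.05). Of 6 adipocyte genes 2 rose, FABP4 by 3.83 ± 0.58 (SE) and LPL by 1.17 ± 0.33. Over all genes 11.4% were called upward and 7.85% downward, so a single call in a list this short does not describe a cell type. The counts were not stable where few genes were called: dropping juvenile RFH replicate 1 left 1 erythroid, 0 smooth muscle, 1 cardiac and 1 adipocyte gene called, dropping replicate 2 of that group 1 erythroid and 1 adipocyte gene, and dropping its replicate 3, any juvenile WT array or adult RFH replicate 1, 1 adipocyte gene. Neutrophil calls were 2 without adult RFH replicate 4, smooth muscle calls 2 without adult RFH replicate 3, and cardiac calls 2 and 1 without adult RFH replicates 1 and 3.

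**Figure D5:**
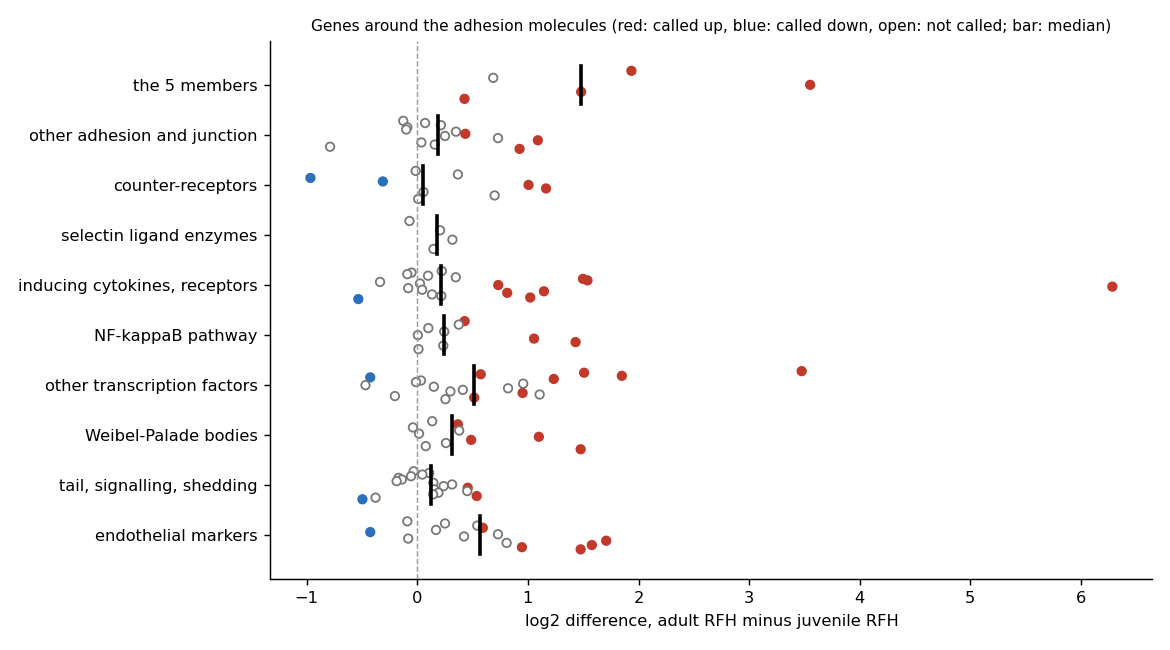
Log2 difference between adult and juvenile RFH leaflets (x axis) for the measured genes of 10 lists (rows), with filled points for called genes, red upward and blue downward, and a bar at each list's median. The median is 1.48 for the 5 members and 0.06 to 0.57 for the other 9 lists.

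The genes around the 5 members changed unevenly. Over the 176 measured genes of all 18 lists, 23.3% were called upward and 6.25% downward in adult against juvenile RFH, against 11.4% and 7.85% of all genes. Of 14 other adhesion and junction molecules of endothelium 3 rose and none fell (median 0.19). ICAM2, a second integrin ligand of the ICAM family, rose by 1.09 ± 0.25 (SE, adjusted p = 0.0141), NECTIN2, a junctional adhesion molecule, by 0.92 ± 0.12 (adjusted p = 0.000899) and CD99, which acts after PECAM1 in passage through the junctions, by 0.43 ± 0.10 (adjusted p = 0.0182). The list had 1 call when juvenile RFH replicate 1 or 3 was dropped and 6 when adult RFH replicate 3 was dropped.

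On the leukocyte side 9 counter-receptor genes were measured, of which 2 rose and 2 fell (median 0.06). ITGB2, the beta chain of the integrins that bind ICAM1, read 9.87, 10.69, 9.39 and 9.10 in adult RFH replicates 1 to 4 and 8.60, 8.83 and 8.84 in juvenile RFH replicates 1 to 3, and rose by 1.01 ± 0.29 (SE, adjusted p = 0.0402). Its call was lost without any 1 of the juvenile RFH or WT arrays or adult RFH replicate 1 (adjusted p = 0.0613 to 0.132). The beta chain of the integrins that bind VCAM1, ITGB1, which most cell types make, fell by 0.31 ± 0.08 (adjusted p = 0.0278), a call lost when any juvenile RFH array was dropped (adjusted p = 0.0661 to 0.0863). ITGB3, an integrin chain of platelets, endothelium and macrophages, rose by 1.16 ± 0.23 and ITGAV, its partner chain in many cells, fell by 0.97 ± 0.12. Without juvenile RFH replicate 1, 2 or 3 the list had 2 calls. Of the enzymes that build selectin ligands 4 were measured and none was called (1 at an unadjusted p under 0.05), the nearest being the sialyltransferase ST3GAL3 at 0.32 ± 0.13 (adjusted p = 0.135).

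Of 19 cytokines that induce adhesion molecules and their receptors 7 rose and 1 fell (median 0.22). IL6 rose by 6.28 ± 0.25 (SE), the tumour necrosis factor receptor TNFRSF1B by 1.02 ± 0.12 and the Toll-like receptor TLR2 by 1.14 ± 0.16 (adjusted p = 0.0014 or less for each). VEGFA, an endothelial growth factor, fell by 0.53 ± 0.14 (adjusted p = 0.0275) at its brightest probe set, but the mean of its probe sets was 0.38 higher in adults (adjusted p = 0.0472). Against 8 calls with all arrays, the list had 5 when juvenile RFH replicate 1 and 3 when juvenile RFH replicate 3 was dropped.

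NF-kappaB genes were measured for 9 of 26 listed, and 3 rose with none falling (median 0.24). NFKBIB and NFKBIA, inhibitors that hold NF-kappaB in the cytoplasm, rose by 1.43 ± 0.13 (SE, adjusted p = 0.000105) and 1.06 ± 0.28 (adjusted p = 0.0259), and IKBKG, the regulatory subunit of the kinase that releases it, by 0.43 ± 0.10 (adjusted p = 0.0133). NFKBIA read 13.11, 12.15, 11.71 and 12.82 in adult RFH replicates 1 to 4, in the same order as SELE and ICAM1, and 11.22, 11.50 and 11.47 in juvenile RFH replicates 1 to 3. That adult order is also the order of the 3' to 5' difference of the control probe sets, from smallest to largest, and what lies behind it was not tested. Dropping juvenile RFH replicate 1, 2 or 3 ended the NFKBIA call (adjusted p = 0.0973, 0.0545 and 0.0702), and so did dropping adult RFH replicate 4 (0.051). Of 19 other transcription factor genes 7 rose and 1 fell (median 0.51), led by ATF3 at 3.47 ± 0.22, CEBPB at 1.51 ± 0.10 and EGR1 at 1.85 ± 0.22, all early responders to stress or cytokines.

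Among 10 genes of the Weibel-Palade bodies, in which P-selectin is stored, 4 rose and none fell (median 0.31). Besides VWF, the plasminogen activator PLAT, which is kept in the endothelium, rose by 1.10 ± 0.21 (SE, adjusted p = 0.00606) and ANXA2, which takes part in release of the bodies, by 0.37 ± 0.09 (adjusted p = 0.0201). The list had 2 calls without juvenile RFH replicate 2 or 3. Of 18 cytoplasmic, signalling and shedding partners 2 rose and 1 fell (median 0.13). These shares, 11.1% and 5.56%, were near the 11.4% and 7.85% of all genes. Moesin (MSN), which ties ICAM1 and VCAM1 to actin, rose by 0.46 ± 0.10 (adjusted p = 0.0113), the kinase ROCK1 rose by 0.54 ± 0.11 and vinculin (VCL), of focal adhesions, fell by 0.50 ± 0.10. MSN lost its call when juvenile RFH replicate 1 was dropped (adjusted p = 0.0529), and the list had 1 call, ROCK1, when a gene's probe sets were averaged and 0 when a fold of 2 was also required.

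In juvenile RFH against WT leaflets none of the 176 measured genes of the 18 lists was called by limma (18 higher and 8 lower at an unadjusted p under 0.05, which is 10.2% and 4.55%, against 11.04% and 4.02% of all genes). Alternative fits of all arrays or of the juvenile arrays called up to 3 genes in the cytokine and receptor, other transcription factor and macrophage lists. In any other list they called at most 1. Leaving out adult RFH replicate 2 gave 1 call in the cytokine and receptor list. Macrophage markers had a median of 0.50, erythroid genes of 0.96 and cardiac muscle genes, high in juvenile RFH replicate 2, of 1.19, against 0.07 over all genes. The means of these lists lay wholly higher in RFH than in WT arrays. So did those of the endothelial, Weibel-Palade, cytokine and receptor, counter-receptor, lymphocyte and neutrophil lists, while the interstitial mean lay wholly lower. Of all single genes, 26.3% lay wholly higher in RFH arrays. The tumour necrosis factor receptor TNFRSF1A had the smallest p of the cytokine and receptor list, at 0.44 ± 0.09 (SE, adjusted p = 0.0965), and VWF that of the Weibel-Palade list, at 0.78 ± 0.29 (adjusted p = 0.296).

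For each member the 3 other genes with the most similar profile were found. Likeness was measured by the root mean square difference over the 10 arrays, after each profile was centred on its own mean. Patterns that a member shares with these genes, here and in the next paragraph, follow from that choice and are no separate result. Nearest to SELE were PTGS2, the inducible cyclooxygenase, at 0.81, then FABP4 at 1.05 and the chemokine CXCL8 at 1.15. PTGS2 read 11.96, 9.95, 9.93 and 11.10 in adult RFH replicates 1 to 4 and 6.58 to 7.61 in the 6 juvenile arrays, in the same order among adults as SELE. The 3' to 5' difference of the control probe sets gives that order too, from smallest to largest. SELP lay nearest to IL1B, the interleukin 1 gene, at 0.21, then CLIC2 at 0.27 and the leukocyte tetraspanin CD53 at 0.33. IL1B read 10.78, 9.17, 8.89 and 9.13 in adult RFH replicates 1 to 4, 7.95, 7.90 and 8.0 in juvenile RFH replicates 1 to 3 and 7.51, 7.36 and 7.63 in juvenile WT replicates 1 to 3. Both IL1B and SELP had adult replicate 1 well above the rest and replicate 3 lowest, a likeness for which IL1B was picked.

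ICAM1 was nearest to IER5, an immediate early gene, at 0.26, with the cytokine gene IL10 at 0.26 and EFHD1 at 0.27. Nearest to PECAM1 were ESAM, another junctional adhesion molecule of endothelium, at 0.13, NOSTRIN, a binding partner of the endothelial nitric oxide synthase, at 0.15, and the Wnt receptor FZD6 at 0.15. ESAM read 8.68, 9.29, 7.80 and 8.95 in adult RFH replicates 1 to 4, and 7.93, 8.12 and 7.80 in juvenile RFH replicates 1 to 3, so that adult replicate 3 was again no higher than the juvenile arrays. VCAM1 lay nearest to P2RX4, an ATP-gated channel, at 0.14, PPM1F at 0.16 and MIF, a macrophage cytokine, at 0.17. Each distance takes in differences between the groups as well as those between arrays of a group.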

How the data were processed

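Each array has a column of log2 values in the table the authors deposited, the unit being read from their range; per the submitters' processing notes R 2.15.2 was used. How probes were background-corrected, normalized and summarised is not given in the sources used here. Medians of single arrays ran from 6.96 to 7.03. For arrays their number, 3 or 4 a group, limits the precision.

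The 124 control probe sets were read separately. Of the other 23999, 10069 carry 1 symbol, 198 several and 13732 none; a gene was read from its brightest probe set by the mean of all 10 arrays. Group means were fitted to all arrays by limma 3.58.1 under R 4.3.3 (eBayes without trend, 7 residual and 3.57 prior degrees of freedom), two-sided, with Benjamini-Hochberg adjustment over 23999 probe sets. SE and 95% intervals are moderated. Fits were tested on simulated data: with 23999 probe sets, changes of 1 on the log2 scale were recovered in 82% for adult against juvenile RFH and 85% for juvenile RFH against WT.

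Named were the members, up to 3 called genes per direction of each of 18 lists (else the smallest p), and the 3 nearest profiles of members varying by at least 1. Members and lists were chosen with earlier results of these data known. Lists were described by counts, with no set test. Alternatives were quantile normalization, median centring, cyclic loess, dim probe sets left out, values below 4 raised to 4, 2-group fits, a trended robust prior, array weights, a replicate block, probe set means, a fold threshold of 2, each array left out and an added covariate. Replicate numbers recur across groups, but deviations of same-numbered arrays correlated between -0.16 and 0.19, so the numbers were not taken as pairs.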

Additional observations from a re-analysis of the deposited data

Results flagged for a closer look

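At the second PECAM1 probe set, adult RFH replicate 3 read 8.90 against 10.13 to 10.31 in the other 3 adult arrays, and the gap to its nearest neighbour was 0.877 of the group's whole range, above Dixon's 95% critical value for 4 samples. Chance flags about 1 in 20 groups (the 95% level), and 6 probe sets were looked at. At the brighter PECAM1 probe set the same array was also lowest, at 11.86, with a gap of 0.694 of the range.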

How the results depend on the processing

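ICAM1 and SELP kept their calls in adult against juvenile RFH under every alternative that was run other than leaving out an array (SELP was lost there without juvenile RFH replicate 1 or 3). SELE and VCAM1 were lost with values below 4 raised to 4 (adjusted p = 0.0703 and 0.0679), in a fit of the RFH arrays alone (0.0692 and 0.11) and with the replicate block (0.0536 and 0.0893), at differences of 3.55 and 0.43, 3.55 and 0.43, and 3.11 and 0.32, so that 2 members were called under each. Raising values to 4 changed no value of SELE or VCAM1, whose lowest were 4.02 and 12.45. It reached their calls only through other probe sets, by the shared prior and the adjustment, and does not test the low values of SELE. VCAM1 was also lost with quantile normalization (0.40, adjusted p = 0.063), and PECAM1 passed with array weights (0.75, adjusted p = 0.0447) and with the 3' to 5' covariate (0.67). Leaving out 1 array gave 1 to 5 called members, with differences of 2.75 to 4.40 for SELE, 1.14 to 1.77 for SELP, 0.32 to 0.52 for VCAM1, 1.78 to 2.13 for ICAM1 and 0.57 to 0.92 for PECAM1. The block leaves adult RFH replicate 4 without a partner, so its differences equal those without that array, and the numbers are not shown to pair arrays. With dim probe sets left out SELE was not tested.

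In juvenile RFH against WT, VCAM1 passed with the juvenile arrays alone or array weights (0.60 under both, 1 member called each), and leaving out 1 array gave no call. The SELE difference was -0.07 without juvenile RFH replicate 3 (range -0.07 to 0.20), the second PECAM1 probe set -0.01 without juvenile WT replicate 1 (range -0.01 to 0.34), desmin (DES) -0.04 without juvenile RFH replicate 2 (range -0.04 to 0.54), and CD47 0.09 and VEGFA (adult against juvenile RFH) 0.38 when a gene's probe sets were averaged. The cause was not tested. Over all probe sets, calls in adult against juvenile RFH fell from 4025 to 2308 with the RFH arrays alone, 2243 when juvenile RFH replicate 1 and 2280 when replicate 3 was dropped; in juvenile RFH against WT they were 28, but 872 with the juvenile arrays alone and 1171 with array weights, and 2 to 71 with 1 array left out. Under the scalings tried the median difference of all probe sets lay between -0.02 and 0.03.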
